A study of Mus musculus with 14 samples.

Results

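Transcripts of genes that build, drive and police the mitotic spindle were examined in thymic lymphomas of p53-mutant mice. The set was a fixed list of 48 genes, chosen by name with earlier results of these data known. Each gene was read from the probe set of highest mean among those naming that gene alone. Of the 48 genes, 46 had such a probe set, out of 10254 genes measured in this way in the series. For Ccnb1 and Espl1 no probe set with that name was found in the annotation used, so they were not analysed here. The 14 tumours came from mice homozygous for mutant p53 (p53R270H/R270H) on a mixed C57BL/6-129/SvEvTac background, killed once respiratory distress appeared, and each was hybridised to 1 array. The controls were 5 tumours with 2 normal Hif1a alleles (HIF1a+/+). They were set against 5 tumours of mice carrying 1 lost allele (HIF1a+/-) and 4 of mice with a knock-in allele opposite a normal one (HIF1aKI/+). The mutant p53 is shared by all 3 groups, so nothing here compares it with normal p53. What the knock-in allele encodes, the ages and the sexes are not given in the labels.

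During mitosis the chromosomes are condensed, attached through their kinetochores to spindle microtubules and pulled apart, after which the cell is cleaved. Cyclin-dependent kinase 1 starts the process, Polo and Aurora kinases organise the spindle, and the spindle checkpoint holds back the anaphase-promoting complex until every chromosome is attached. Most of these genes are transcribed in a burst in late S phase and G2, so that in a tissue their RNA follows how many cells are dividing. In thymus and in lymphoma of thymic origin they mark the dividing lymphoid cells.

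Their promoters share an element that the choice of genes did not use, and it is shown first because most of the genes followed in the results carry it. The cell cycle genes homology region, or CHR, has the letters TTTGAA or TTCGAA, and in cell cycle genes it is often found with CCAAT boxes upstream. Windows of 300 bases, 250 before and 50 after each start, were taken from RefSeq (GRCm38.p6) and both strands were searched. A window was found for 38 of the 46 measured genes, and a gene with several starts was counted if any of its windows held the letters. A CHR was present for 30 of the 38 (78.9%), against 16.9% of 8248 measured genes with a window and 21.7% of all 27025 genes in the table. At least 1 CCAAT was present for 29 of the 38 (76.3%), against 42.4% of the measured genes. A CHR together with 2 or more CCAAT was present for 18 of the 38 (47.4%), against 2.40% of the measured genes. These are matches of letters and are not shown to be bound in these tumours. The genes with no CHR in the window were Birc5, Cenpe, Mad2l1, Ncaph, Nek2, Nuf2, Nusap1 and Pttg1.

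The 6 promoters below were the ones with a CHR and at least 2 CCAAT all inside the last 120 bases before the start. Capitals mark the CHR and the CCAAT boxes on either strand, and each line runs 5′ to 3′ on the strand of the gene, ending at the base before the start.
Bub3 promoter, chr7:131560250-131560369, plus strand: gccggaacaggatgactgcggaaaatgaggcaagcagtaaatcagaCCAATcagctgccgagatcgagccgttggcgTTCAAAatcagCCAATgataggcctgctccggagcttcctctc
Cdc20 promoter, chr4:118437344-118437463, minus strand: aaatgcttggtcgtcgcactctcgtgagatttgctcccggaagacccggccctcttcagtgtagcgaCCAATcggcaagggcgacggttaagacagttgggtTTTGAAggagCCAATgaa
Cdk1 promoter, chr10:69352913-69353032, minus strand: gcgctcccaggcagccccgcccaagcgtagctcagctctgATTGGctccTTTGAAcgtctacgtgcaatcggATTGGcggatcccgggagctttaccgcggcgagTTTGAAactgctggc
Ect2 promoter, chr3:27153879-27153998, minus strand: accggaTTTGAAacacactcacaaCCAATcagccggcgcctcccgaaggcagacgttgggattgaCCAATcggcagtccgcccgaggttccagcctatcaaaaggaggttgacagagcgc
Top2a promoter, chr11:99024190-99024309, minus strand: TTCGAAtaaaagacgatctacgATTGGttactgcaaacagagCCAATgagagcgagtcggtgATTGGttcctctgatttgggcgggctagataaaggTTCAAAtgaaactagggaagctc
Ube2c promoter, chr2:164769809-164769928, plus strand: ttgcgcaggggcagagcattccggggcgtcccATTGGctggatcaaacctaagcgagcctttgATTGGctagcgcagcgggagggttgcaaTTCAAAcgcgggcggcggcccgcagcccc
Between them these genes cover mitotic entry (Cdk1), the checkpoint and its target (Bub3, Cdc20), ubiquitin transfer at anaphase (Ube2c), chromosome untangling (Top2a) and cleavage (Ect2). Cdk1 and Top2a each held 2 CHR matches in the part shown. The genes Incenp, Tpx2, Foxm1, Smc4, Aurkb, Ccna2, Kif20a and Cdc25c had no window.

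T lineage markers were checked against the label. Cd3e lay between 12.05 and 13.48 and Cd8a between 13.49 and 14.18 on the log2 scale in all 14 tumours. Of the 13 T cell markers 12 were above the low mode described next in every tumour, and Cd5, from 4.37 to 9.90, was above it in 13. Cd2 and Bcl11b reached down to 7.92 and 8.40. Levels are log2 probe set summaries, on which a difference of 1 is 2-fold. A low mode of the distribution, probe sets without signal above background, ended at 4.47, and all 46 genes had means above it. Array medians lay between 7.91 and 8.03. On the probe set used, Hif1a itself read 12.44 to 13.04 in HIF1a+/+, 12.24 to 12.82 in HIF1a+/- and 11.75 to 12.25 in HIF1aKI/+ tumours. Another Hif1a probe set read 9.38 to 10.64, 9.02 to 10.56 and 6.51 to 9.005 in the same order. On both, all knock-in tumours lay below all controls. On a further probe set the groups overlapped, at 9.31 to 11.03, 10.12 to 10.76 and 8.84 to 10.26. The remaining Hif1a probe set lay below the low mode in all 14 tumours. Whether the Hif1a probes lie in the deleted or replaced part of the gene is not given. These values therefore do not check the genotype labels. In whole tumours, fewer dividing cells and less RNA per cell cannot be told apart.

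No mitotic gene differed between genotypes past the threshold, an adjusted p of 0.05 in limma over all 10254 genes. Most of them nevertheless had a lower mean in both altered genotypes than in HIF1a+/+ tumours, by amounts that were mostly within the spread of the tumours. In HIF1a+/- against HIF1a+/+ tumours 0 of 46 passed, where 0.0195% of all genes did, and the smallest adjusted p was 0.536. At an unadjusted p under 0.05 there were 3 lower and 0 higher, where 3.64% of all genes were lower and 4.30% higher at that level. The mean was lower for 37 of 46 genes (80.4%), against 53.8% of all genes and 49.1% of the 7301 genes above the low mode. The median difference was -0.17, against 0.00 over all genes and 0.01 over those above the low mode. Without HIF1a+/- tumour 5 the count was 32 and the median -0.09, and the median was -0.26 without HIF1a+/- tumour 1 and -0.27 without HIF1a+/+ tumour 2. The 5 HIF1a+/- tumours and the 5 HIF1a+/+ tumours overlapped for every one of the 46 genes, where 0.741% of all genes lay wholly lower and 0.731% wholly higher.

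In HIF1aKI/+ against HIF1a+/+ tumours 0 of 46 passed, as 0% of all genes did, with a smallest adjusted p of 0.984. At an unadjusted p under 0.05 there was 1 lower gene and 0 higher, where 1.63% and 2.72% of all genes were lower and higher. The mean was lower for 33 of 46 (71.7%), against 52.3% of all genes and 46.2% of those above the low mode. The median difference was 0.03 over the genes above the low mode and -0.17 over the 46. That median was -0.09 without HIF1aKI/+ tumour 4, -0.11 without tumour 3 and -0.26 without tumour 5. For 1 gene, Cenpe, all knock-in tumours lay below all controls, which held for 0.878% of all genes. Both comparisons use the same 5 control tumours, so their shared direction is not independent.

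HIF1a+/- and HIF1aKI/+ tumours were compared with each other directly, which leaves the controls out. Here too 0 of 46 passed in limma, as 0% of all genes did, with 1 gene, Ncaph, lower at an unadjusted p under 0.05 and 0 higher, where 1.65% of all genes were lower and 1.41% higher. No gene had groups apart, which 0.439% of all genes did lower and 0.234% higher. The mean was lower in HIF1a+/- for 31 of 46 (67.4%), against 53.1% of all genes and 53.8% of those above the low mode. The median was -0.02 over the genes above the low mode and -0.05 over the 46. That direction rested on HIF1a+/- tumour 5, without which 18 of 46 were lower and the median was 0.05. The median was 0.01 without HIF1aKI/+ tumour 5, -0.09 without HIF1aKI/+ tumour 3 or 4 and -0.12 without HIF1a+/- tumour 1. In the moderated F test over all 3 genotypes 0 of 46 passed (smallest adjusted p 0.895), as 0% of all genes did, and 1 gene, Ect2, had an unadjusted p under 0.05, where 5.43% of all genes had.

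The intervals show which differences of the mean each gene's values leave room for. They do not show which differences would have passed the threshold. In HIF1a+/- against HIF1a+/+, the 95% interval of the log2 difference lay inside -1 to 1 for 38 of 46 genes, so a 2-fold shift of the mean lay outside it. It reached past that for Kif11, Kif4, Plk1, Bub1b, Ttk, Cdc25c, Cenpe and Foxm1. The interval lay inside for 35 genes in HIF1aKI/+ against HIF1a+/+ and for 39 in HIF1a+/- against HIF1aKI/+. The intervals are for single genes and are not adjusted for their number.

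**Figure D1:**
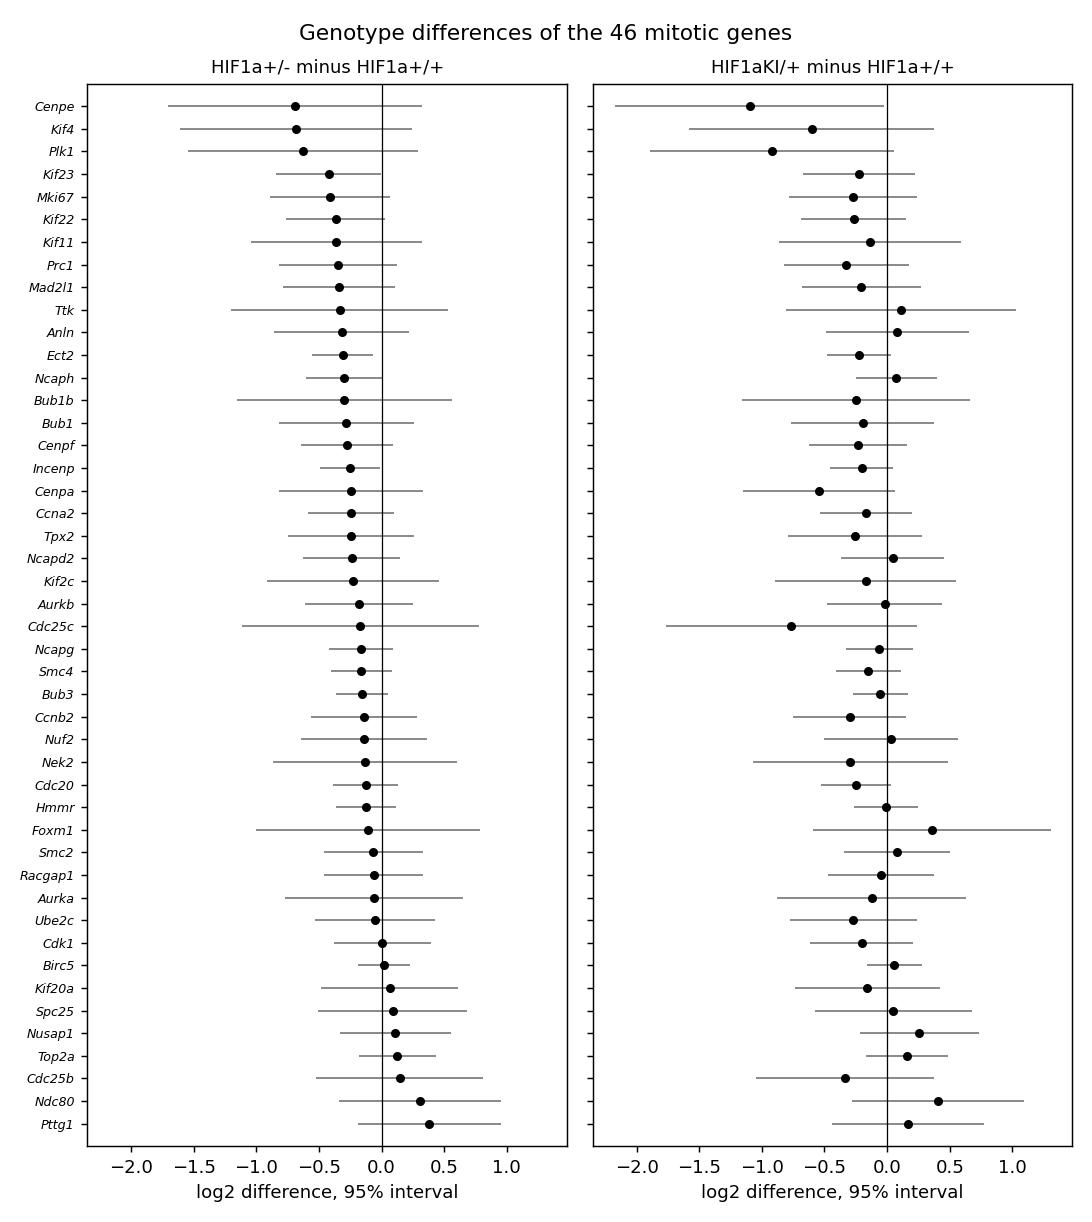
Log2 differences of the 46 genes (points, horizontal axis) with 95% intervals (lines), for HIF1a+/- minus HIF1a+/+ on the left and HIF1aKI/+ minus HIF1a+/+ on the right, sorted by the left panel. Most points lie left of 0, with medians of -0.17 in both panels, and the intervals include 0 except for Ect2, Incenp and Kif23 on the left and Cenpe on the right.

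Mitotic entry is set by Cdk1 and its cyclins, with Cdc25 phosphatases that remove the inhibitory phosphates from Cdk1. Cdk1 stood at 13.55, 13.33, 13.51, 13.85 and 13.59 in HIF1a+/+ tumours 1 to 5, at 13.65, 13.56, 13.61, 13.90 and 13.14 in HIF1a+/- tumours 1 to 5 and at 13.68, 13.48, 12.79 and 13.49 in HIF1aKI/+ tumours 1, 3, 4 and 5. HIF1a+/- tumour 5 and HIF1aKI/+ tumour 4 were the lowest and the 3 groups overlapped. The difference was 0.01 (SE 0.18) in HIF1a+/- and -0.20 (SE 0.19) in HIF1aKI/+ against HIF1a+/+, with limma adjusted p of 0.993 and 0.984. The cyclin genes Ccna2 (-0.25 and -0.17) and Ccnb2 (-0.14 and -0.30) did not pass either. Cdc25b, whose product acts on Cdk1 at the centrosome, was 10.94, 10.60, 10.61, 10.53 and 11.26 in HIF1a+/+, 12.03, 10.50, 10.71, 10.68 and 10.73 in HIF1a+/- and 11.02, 9.77, 10.40 and 10.62 in HIF1aKI/+ tumours. HIF1a+/- tumour 1 stood alone at 12.03, and HIF1a+/- and HIF1aKI/+ tumours differed by 0.48 (SE 0.33, limma adjusted p = 1.0). Cdc25c spanned 6.59 to 8.63 within the HIF1a+/+ group alone. In HIF1aKI/+ against HIF1a+/+ tumours all 5 measured genes of this group had a lower mean, with a median of -0.30. In HIF1a+/- tumours 3 of 5 did.

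The mitotic kinases Aurka, Aurkb, Plk1 and Nek2 had lower means in both altered genotypes, 4 of 4 in each, and none passed. Without HIF1a+/- tumour 5 the count in that genotype was 2 of 4. Plk1, the Polo kinase of centrosome maturation, kinetochores and cleavage, read 9.96, 10.16, 9.89, 9.05 and 9.91 in HIF1a+/+ tumours. It read 10.09, 8.50, 9.99, 9.18 and 8.07 in HIF1a+/- tumours and 9.36, 9.01, 7.93 and 9.21 in HIF1aKI/+ tumours. Of the 5 controls 4 lay between 9.89 and 10.16 and tumour 4 at 9.05, whereas all 4 knock-in tumours were at or below 9.36, so the groups overlapped through that 1 control. The difference was -0.92 (SE 0.45, 95% interval -1.89 to 0.05, limma adjusted p = 0.984) in HIF1aKI/+ and -0.63 (SE 0.42, limma adjusted p = 0.733) in HIF1a+/-. Aurka, the Aurora kinase of the spindle poles, differed by -0.06 in HIF1a+/- and -0.12 in HIF1aKI/+. Its values were 10.33, 9.92, 9.93, 9.99 and 10.28 in HIF1a+/+, 10.81, 10.49, 10.08, 9.78 and 8.996 in HIF1a+/- and 10.39, 9.60, 9.36 and 10.52 in HIF1aKI/+. HIF1a+/- held both the highest and the lowest tumour, tumours 1 and 5. Aurkb, the Aurora kinase of the chromosomal passenger complex, was 10.31, 10.40, 10.64, 10.77 and 10.25 in HIF1a+/+, 10.67, 9.97, 10.10, 10.78 and 9.97 in HIF1a+/- and 10.02, 10.41, 10.75 and 10.64 in HIF1aKI/+ tumours. Its groups overlapped, with differences of -0.18 and -0.02 from HIF1a+/+. Nek2, a centrosome kinase, differed by -0.13 and -0.29.

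Kinesins, the motor proteins of the spindle, were the role with the lowest median in HIF1a+/- tumours, -0.36 over 6 genes, 5 of them with a lower mean. Without HIF1a+/- tumour 5 the median was -0.23. In HIF1aKI/+ tumours 6 of 6 had a lower mean, with a median of -0.20. Kif23, the motor of the centralspindlin complex in the midzone, was 11.45, 10.98, 11.53, 11.28 and 11.35 in HIF1a+/+, 11.29, 10.70, 11.12, 11.07 and 10.30 in HIF1a+/- and 10.80, 11.30, 11.39 and 10.89 in HIF1aKI/+ tumours. Of the controls 4 lay at or above 11.28, and of the HIF1a+/- tumours only tumour 1 did. The difference was -0.42 (SE 0.19), a 1.34-fold lower mean, with an unadjusted p of 0.0491 and a limma adjusted p of 0.625. Kif11, which slides spindle poles apart, was 10.45, 11.19, 11.21, 11.45 and 9.91 in HIF1a+/+, 10.86, 10.63, 10.13, 10.93 and 9.87 in HIF1a+/- and 10.73, 10.48, 10.43 and 11.20 in HIF1aKI/+ tumours. The control group was itself split, from 9.91 in tumour 5 to 11.45 in tumour 4. Kif4, a chromosome-arm motor, had the lowest mean difference of the kinesins, -0.68 in HIF1a+/- and -0.60 in HIF1aKI/+ (SE 0.42 and 0.45). Within HIF1a+/- alone Kif4 ran from 7.72 to 10.20. Kif22 differed by -0.37 and -0.27, Kif2c by -0.23 and -0.17, and Kif20a by 0.07 and -0.16, in HIF1a+/- and HIF1aKI/+ respectively. Another Kif22 probe set, whose probes can match other transcripts, gave -0.23 and -0.07 (unadjusted p = 0.00424 and 0.351 in limma over probe sets). A weaker Kif23 probe set, with a mean of 6.03, gave -0.48 and -0.94 (unadjusted p = 0.179 and 0.0221 in limma over probe sets).

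Spindle checkpoint genes had lower means in HIF1a+/- tumours for 5 of 5, with a median of -0.30 that was -0.14 without tumour 5, and for 4 of 5 in HIF1aKI/+, with a median of -0.20. Bub1, the kinase that recruits checkpoint proteins to kinetochores, was 11.45, 11.11, 11.57, 11.56 and 10.96 in HIF1a+/+, 11.65, 11.31, 11.08, 11.09 and 10.11 in HIF1a+/- and 11.32, 11.02, 10.88 and 11.32 in HIF1aKI/+ tumours. HIF1a+/- tumour 5, at 10.11, stood well below the lowest control, at 10.96, and the other altered tumours lay between 10.88 and 11.65, close to the control range. The difference was -0.28 (SE 0.25, limma adjusted p = 0.787). Mad2l1, which carries the checkpoint signal to Cdc20, was 11.81, 11.40, 11.80, 11.70 and 11.41 in HIF1a+/+, 11.31, 11.39, 10.98, 11.93 and 10.81 in HIF1a+/- and 10.99, 11.66, 11.37 and 11.66 in HIF1aKI/+ tumours. The highest tumour of all was a HIF1a+/- one, at 11.93, and the differences were -0.34 (SE 0.21) and -0.21 (SE 0.22). The checkpoint kinase gene Ttk ranged from 7.41 to 9.79 within HIF1a+/-. Bub1b (BubR1) was split inside each genotype, with HIF1a+/- tumour 1, HIF1aKI/+ tumour 5 and HIF1a+/+ tumour 4 at 11.67, 11.58 and 11.66 and the other 11 tumours between 9.84 and 10.75. Bub3 was even across tumours on the probe set used, with a within-genotype SD of 0.15. A second Bub3 probe set ran from 9.89 to 11.06.

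The chromosomal passenger complex corrects faulty attachments at the centromere, and the kinetochore joins centromere to microtubules. Incenp, the scaffold that holds Aurora B and survivin on the inner centromere, was 14.34, 14.29, 14.45, 14.65 and 14.26 in HIF1a+/+, 14.24, 13.89, 14.06, 14.26 and 14.29 in HIF1a+/- and 14.01, 14.05, 14.36 and 14.37 in HIF1aKI/+ tumours. The HIF1a+/- values ended at 14.29 and the controls began at 14.26, so the groups overlapped only at their edges. The difference was -0.25 (SE 0.11, unadjusted p = 0.0416, limma adjusted p = 0.609) in HIF1a+/-. A second Incenp probe set, without the suffix for probes that can match other transcripts, gave -0.35 (unadjusted p = 0.115 in limma over probe sets). Birc5 (survivin) was nearly constant, at 13.59, 13.44, 13.63, 13.65 and 13.86 in HIF1a+/+, 13.71, 13.77, 13.72, 13.75 and 13.31 in HIF1a+/- and 13.67, 13.66, 13.76 and 13.67 in HIF1aKI/+ tumours. Its differences were 0.02 (95% interval -0.19 to 0.23) and 0.06 (95% interval -0.16 to 0.28), and HIF1a+/- tumour 5 at 13.31 was the lowest of the 14.

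Cenpe, a kinetochore motor that carries chromosomes to the spindle equator, was 9.01, 8.83, 9.75, 9.50 and 9.01 in HIF1a+/+, 9.65, 6.92, 9.35, 8.12 and 8.61 in HIF1a+/- and 8.23, 7.29, 8.27 and 8.70 in HIF1aKI/+ tumours. The highest knock-in tumour, at 8.70, lay just below the lowest control, at 8.83, and HIF1a+/- tumours ran from 6.92 to 9.65. The HIF1aKI/+ difference of -1.10 (SE 0.49), 2.14-fold lower, had an unadjusted p of 0.0464 and did not pass (limma adjusted p = 0.984). Cenpa, the histone H3 variant of centromeres, was 11.96, 12.01, 12.40, 12.28 and 13.04 in HIF1a+/+, 12.17, 12.21, 12.38, 12.11 and 11.58 in HIF1a+/- and 12.12, 11.35, 11.31 and 12.39 in HIF1aKI/+ tumours. Knock-in tumours 3 and 4 were the 2 lowest of all and tumours 1 and 5 lay among the controls, for a difference of -0.55 (SE 0.28, limma adjusted p = 0.984). Ndc80, which grips microtubule ends, was 9.46, 9.46, 9.35, 9.97 and 9.05 in HIF1a+/+, 10.14, 10.11, 9.41, 9.99 and 9.17 in HIF1a+/- and 10.14, 8.87, 10.25 and 10.19 in HIF1aKI/+ tumours. Its mean was higher in both altered genotypes, by 0.31 (SE 0.30) and 0.40 (SE 0.31), and did not pass in either. Its partners in the same complex, Nuf2 (-0.14 and 0.03) and Spc25 (0.09 and 0.05), were near 0, and Cenpf differed by -0.28 and -0.23.

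**Figure D2:**
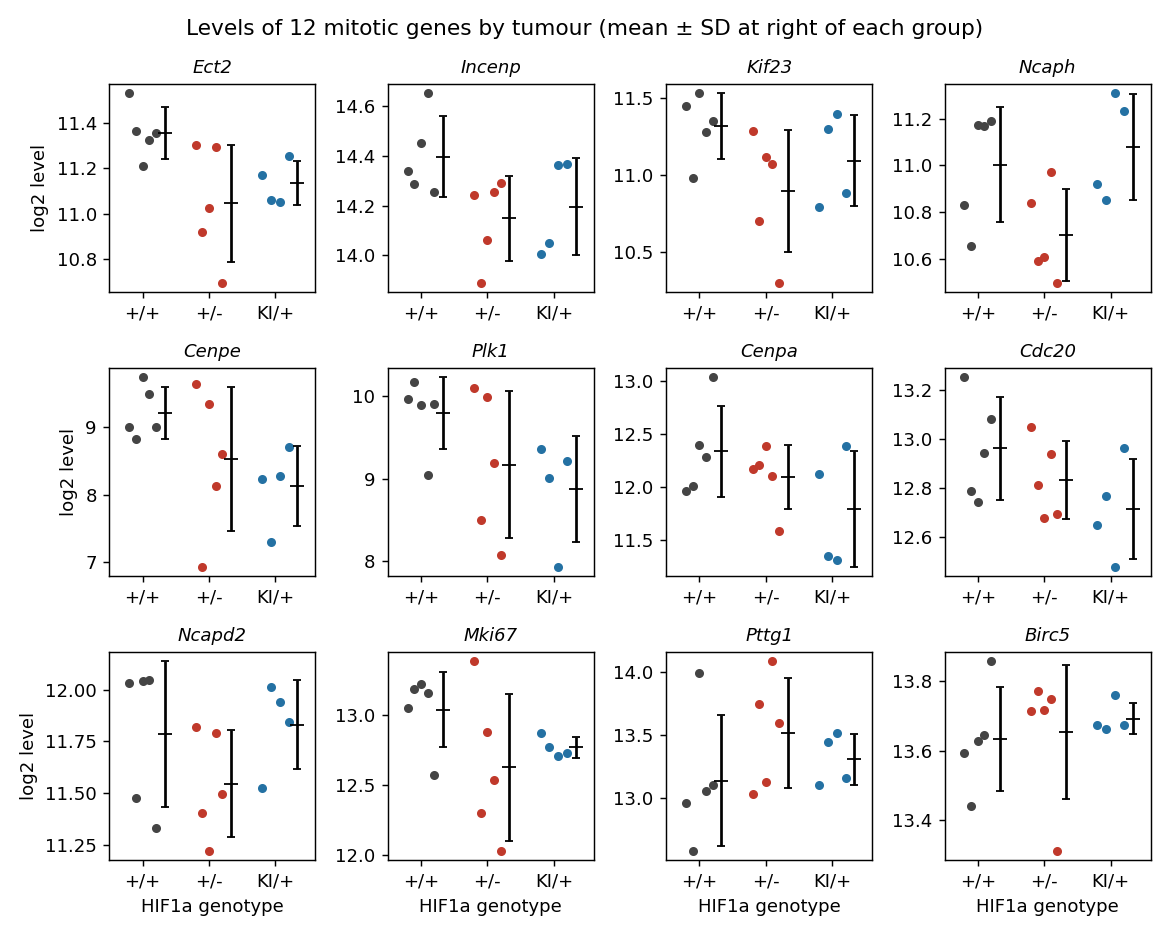
Log2 levels (vertical axis, own scale per gene) of 12 of the genes in each tumour (points) by HIF1a genotype, with the mean and SD of each group (bar at the right of its points; 5, 5 and 4 tumours). The groups overlap in every panel except HIF1a+/+ against HIF1aKI/+ for Cenpe, and single tumours stand apart for Plk1, Birc5 and Mki67.

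On the probe sets used, genes of the spindle midzone and of cleavage included the smallest unadjusted p of the whole set. Ect2, the exchange factor that activates RhoA at the cleavage plane, was 11.53, 11.36, 11.21, 11.32 and 11.36 in HIF1a+/+ tumours. It was 11.30, 10.92, 11.02, 11.30 and 10.70 in HIF1a+/- and 11.17, 11.06, 11.05 and 11.25 in HIF1aKI/+ tumours. HIF1a+/- tumours 2, 3 and 5 lay below every control, and tumours 1 and 4, both at 11.30, lay inside the control range, as did 1 of the 4 knock-in tumours. The difference was -0.31 (SE 0.11), 1.24-fold lower, with an unadjusted p of 0.0167 and a limma adjusted p of 0.536. In HIF1aKI/+ it was -0.22 (SE 0.12, limma adjusted p = 0.984). Anln (anillin, the cleavage-ring scaffold) was 9.64, 9.58, 10.23, 9.83 and 9.66 in HIF1a+/+, 9.75, 9.68, 9.95, 9.46 and 8.50 in HIF1a+/- and 9.61, 10.01, 10.13 and 9.72 in HIF1aKI/+ tumours. HIF1a+/- tumour 5, at 8.50, stood alone below the next lowest, at 9.46, and the HIF1a+/- mean was -0.40 (SE 0.26) relative to HIF1aKI/+. Racgap1, the partner of Kif23 in centralspindlin, differed by -0.06 and -0.05. Together 3 of 3 cleavage genes had a lower mean in HIF1a+/-, or 2 of 3 without tumour 5, and 2 of 3 in HIF1aKI/+.

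Prc1, which bundles midzone microtubules, was 12.17, 12.39, 12.50, 12.23 and 12.05 in HIF1a+/+, 12.33, 11.48, 12.17, 11.99 and 11.63 in HIF1a+/- and 11.57, 12.56, 11.54 and 12.11 in HIF1aKI/+ tumours. Knock-in tumour 3 had the highest level of the 14, at 12.56, and knock-in tumours 1 and 4 were among the lowest, so that difference (-0.33, SE 0.23) was within the spread. Tpx2, which activates Aurora A on the spindle, was 12.01, 12.15, 12.57, 12.34 and 12.17 in HIF1a+/+, 12.27, 11.67, 12.84, 11.64 and 11.59 in HIF1a+/- and 11.94, 11.91, 11.80 and 12.33 in HIF1aKI/+ tumours. HIF1a+/- tumour 3 was the highest at 12.84, and the other groups lay inside the HIF1a+/- range. A second Tpx2 probe set had an r of 0.19 with the first over 14 tumours and differed by 0.05 where the first differed by -0.24. Hmmr and Nusap1, 2 microtubule-binding proteins of the spindle, differed by -0.12 and 0.11 in HIF1a+/- and by -0.01 and 0.26 in HIF1aKI/+.

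Anaphase begins when Cdc20 activates the anaphase-promoting complex, whose ubiquitin-conjugating enzyme is Ube2c and whose target securin is encoded by Pttg1. Cdc20 was 13.25, 12.79, 12.74, 12.94 and 13.08 in HIF1a+/+, 13.05, 12.81, 12.68, 12.94 and 12.69 in HIF1a+/- and 12.65, 12.77, 12.48 and 12.96 in HIF1aKI/+ tumours. Knock-in tumours 1 and 4 lay below every control and tumours 3 and 5 among them, for a difference of -0.25 (SE 0.13, limma adjusted p = 0.984). A second Cdc20 probe set gave -0.35 (unadjusted p = 0.211 in limma over probe sets). Ube2c differed by -0.05 and -0.27.

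Pttg1 read 12.96, 12.58, 13.998, 13.05 and 13.10 in HIF1a+/+, 13.03, 13.75, 13.13, 14.09 and 13.59 in HIF1a+/- and 13.10, 13.44, 13.52 and 13.16 in HIF1aKI/+ tumours. HIF1a+/- tumour 4 and HIF1a+/+ tumour 3 were the highest and HIF1a+/+ tumour 2 the lowest, so the groups overlapped. Its mean was higher in both altered genotypes, by 0.38 (SE 0.26) and 0.17 (SE 0.28), without passing (limma adjusted p = 0.737 and 1.0). Its 2 other probe sets ranked the tumours much alike, with r of 0.87 and 0.98 to the first over 14 tumours, and differed by 1.02 and 0.75 between HIF1a+/- and HIF1a+/+. On the probe set behind the latter value the tumours ran from 9.31 to 12.18.

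Condensin genes, whose products compact chromosomes, were 5 of this group of 6, with Top2a. Of the 6, 5 had a lower mean in HIF1a+/- tumours and 2 in HIF1aKI/+. Ncaph, a regulatory subunit of condensin I, was 10.83, 10.66, 11.17, 11.17 and 11.19 in HIF1a+/+, 10.84, 10.59, 10.61, 10.97 and 10.50 in HIF1a+/- and 10.92, 10.85, 11.31 and 11.23 in HIF1aKI/+ tumours. HIF1a+/- tumours 2, 3 and 5 were the 3 lowest of all and knock-in tumours 4 and 5 the 2 highest. HIF1a+/- differed from HIF1aKI/+ by -0.38 (SE 0.15, unadjusted p = 0.0254, limma adjusted p rounding to 1.0) and from HIF1a+/+ by -0.30 (SE 0.14, limma adjusted p = 0.626). A second Ncaph probe set differed by -0.14 from HIF1a+/+. Ncapd2, another condensin I subunit, was 12.03, 11.47, 12.04, 12.05 and 11.33 in HIF1a+/+, 11.82, 11.40, 11.22, 11.79 and 11.50 in HIF1a+/- and 11.52, 12.01, 11.94 and 11.84 in HIF1aKI/+ tumours. The control group was split, 3 tumours at 12.03 to 12.05 and 2 at 11.33 and 11.47, and the HIF1a+/- mean was -0.28 (SE 0.19) relative to HIF1aKI/+. Top2a, the topoisomerase that untangles sister chromatids, was 13.34, 13.01, 13.44, 13.20 and 12.83 in HIF1a+/+, 13.55, 13.22, 13.33, 13.42 and 12.94 in HIF1a+/- and 13.31, 13.21, 13.61 and 13.17 in HIF1aKI/+ tumours. Its mean was higher in both, by 0.13 (95% interval -0.18 to 0.44) and 0.16 (95% interval -0.17 to 0.49), within the spread. Smc2, Smc4 and Ncapg differed by -0.07, -0.16 and -0.16 in HIF1a+/- and by 0.08, -0.15 and -0.06 in HIF1aKI/+.

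Mki67, the gene of the Ki-67 proliferation antigen, was 13.05, 13.19, 13.22, 13.16 and 12.57 in HIF1a+/+, 13.38, 12.30, 12.88, 12.54 and 12.03 in HIF1a+/- and 12.87, 12.77, 12.71 and 12.73 in HIF1aKI/+ tumours. Controls 1 to 4 lay between 13.05 and 13.22 with tumour 5 at 12.57, knock-in tumours were tight at 12.71 to 12.87, and HIF1a+/- tumours ran from 12.03 to 13.38. The differences were -0.41 (SE 0.22, limma adjusted p = 0.655) and -0.27 (SE 0.23, limma adjusted p = 0.984). Foxm1, the transcription factor that switches on many G2 and mitotic genes, was 8.53, 7.39, 8.89, 8.70 and 8.23 in HIF1a+/+, 8.20, 7.70, 7.57, 9.66 and 8.07 in HIF1a+/- and 8.37, 9.43, 8.47 and 8.56 in HIF1aKI/+ tumours. HIF1a+/- tumour 4 and knock-in tumour 3 were the highest and HIF1a+/+ tumour 2 the lowest. The differences, -0.11 (SE 0.41) and 0.36 (SE 0.43), were small against that spread.

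The same genes were followed tumour by tumour. Each gene was set to its difference from its own mean over 14 tumours, and the 46 differences were averaged per tumour. In HIF1a+/+ tumours 1 to 5 the average was 0.09, -0.03, 0.22, 0.21 and 0.07. It was 0.31, -0.16, -0.05, 0.06 and -0.51 in HIF1a+/- tumours 1 to 5 and -0.07, -0.14, -0.18 and 0.19 in HIF1aKI/+ tumours 1, 3, 4 and 5. HIF1a+/- thus held both the highest tumour, 1, and the lowest, 5. The group means were 0.11 ± 0.11 for the 5 HIF1a+/+, -0.07 ± 0.30 for the 5 HIF1a+/- and -0.05 ± 0.16 for the 4 HIF1aKI/+ tumours (± SD), and the groups overlapped.

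HIF1a+/- tumour 5 had the lowest level of all 14 tumours for 21 of 46 genes (45.7%) and was below the gene's mean for 43, whereas it was lowest for 13.8% of the 7301 genes above the low mode. It was also the highest tumour for 13.3% of those genes but for 0 of the 46. The genes farthest below their own mean there were Ttk, Plk1, Anln, Kif4, Spc25, Bub1 and Aurka. They span the checkpoint, spindle poles, cleavage ring, motors and kinetochore. HIF1a+/- tumour 1 was the highest tumour for 11 of 46 genes (23.9%), against 7.18% of genes above the low mode. HIF1aKI/+ tumour 4 was the lowest for 9 of 46 (19.6%), against 11.3%, with mitotic kinase and mitotic entry genes averaging -0.65 and -0.63 there and condensin genes with Top2a 0.19. HIF1aKI/+ tumour 1 was neither the highest nor the lowest tumour for any of the 46. Of genes above the low mode it was highest for only 3.40% and lowest for only 3.42%.

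**Figure D3:**
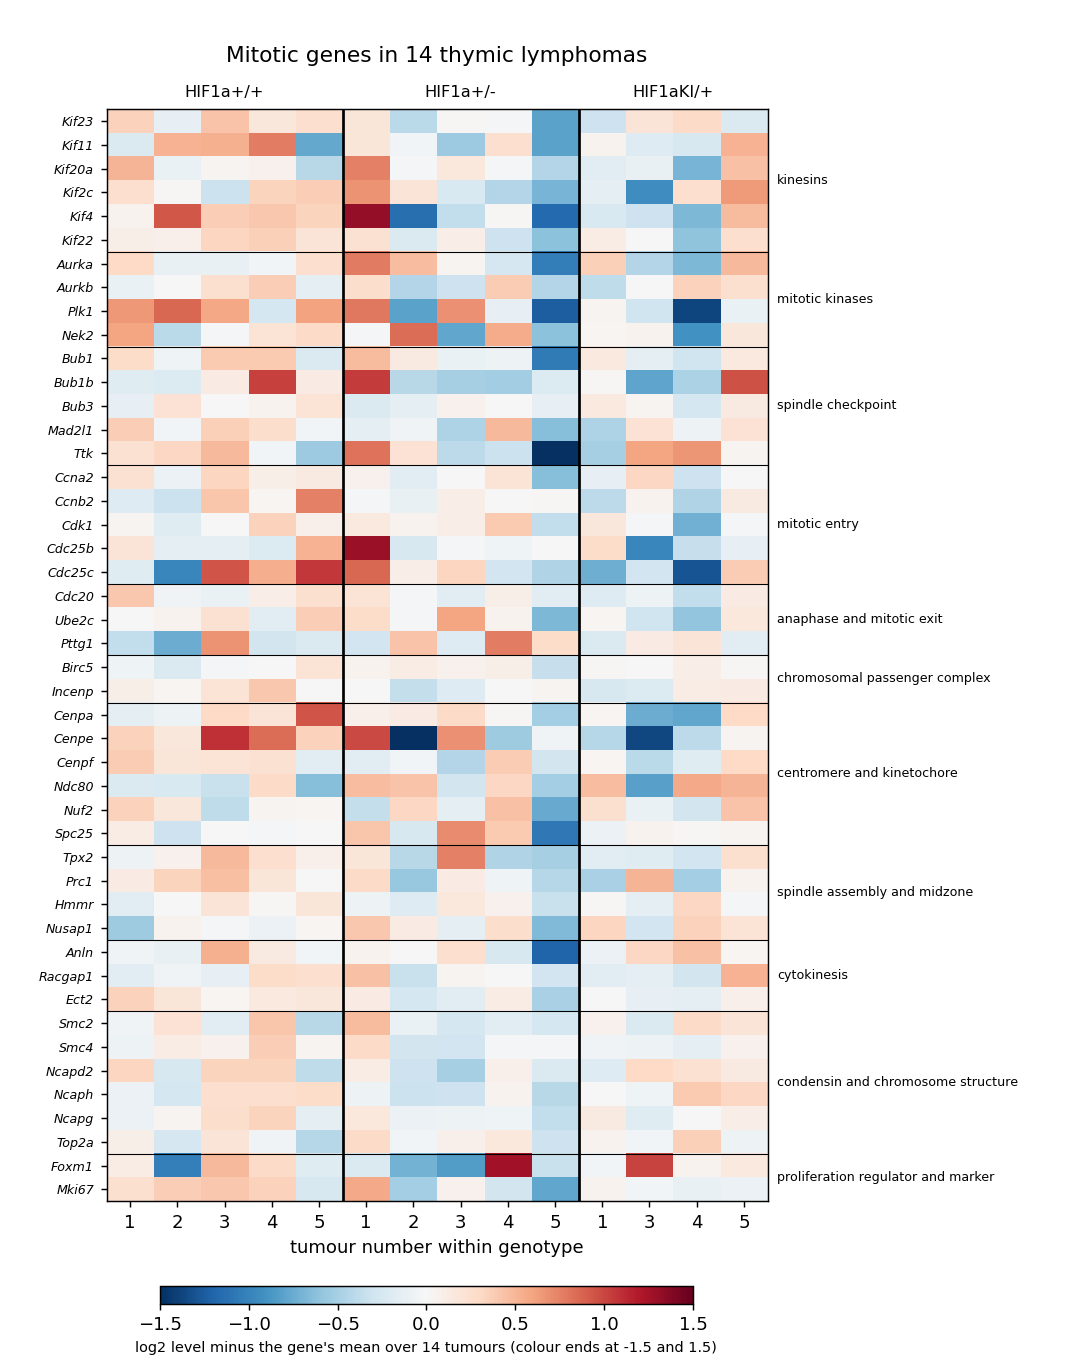
Log2 level of each of the 46 genes (rows, grouped by role) minus its own mean over 14 tumours, in each tumour (columns, by genotype and tumour number). Blue is below and red above the mean, and HIF1a+/- tumour 5 is blue in most rows (43 of 46 below the mean).

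**Figure D4:**
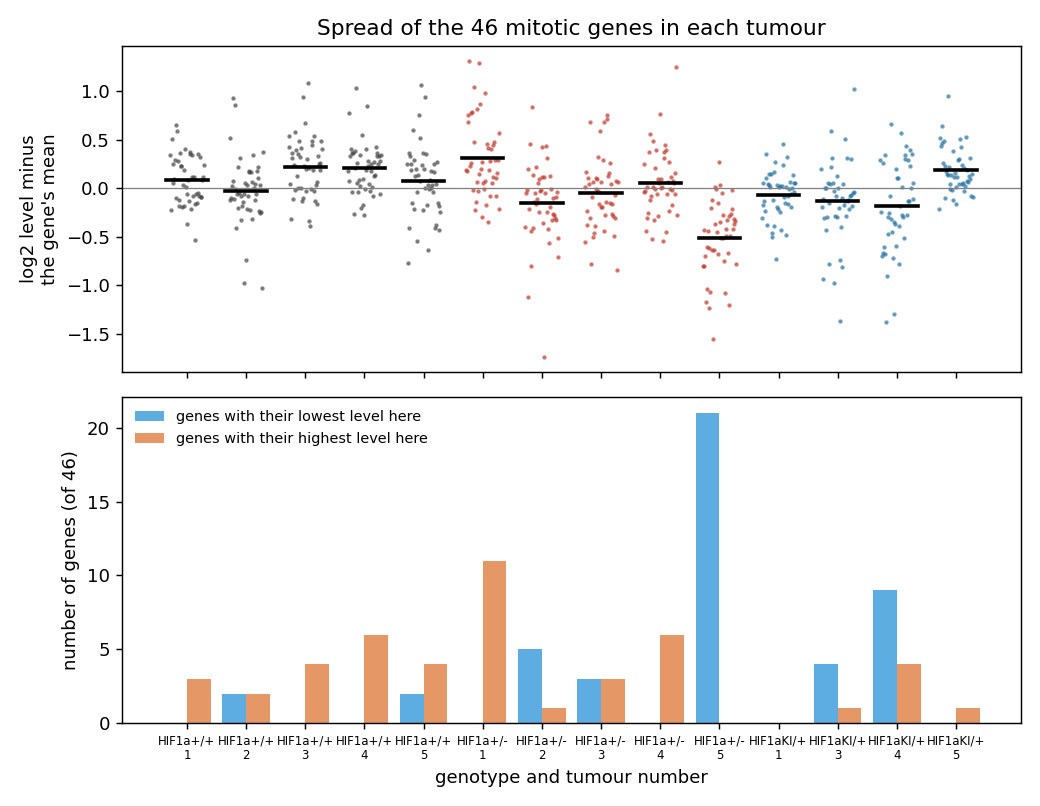
Above, the 46 genes of each tumour as points (log2 level minus the gene's mean) with their average as a black line, by genotype and tumour number. Below, the number of genes with their lowest (blue) or highest (orange) level in that tumour, with HIF1a+/- tumour 5 lowest for 21 and HIF1a+/- tumour 1 highest for 11.

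Markers of other cells also differed between these tumours, and their part in the result was not tested. In HIF1a+/- tumour 5 the 11 macrophage markers averaged 8.06, the lowest of 14 tumours (8.24 to 10.28 in the others), and 2 of the 11, Itgam and Cd163, had means below the low mode over all tumours. The 13 T cell markers averaged 12.22 there, the highest of 14 (11.36 to 12.07 in the others). The 8 endothelial markers averaged 5.78, also the highest (4.01 to 5.37 in the others), with 4 of the 8 below the low mode in the mean. By genotype, the mean was higher than in HIF1a+/+ for 10 of 13 T cell markers in HIF1a+/- and 11 of 13 in HIF1aKI/+ (medians 0.12 and 0.12). It was lower for 9 of 11 macrophage markers in HIF1a+/- and 6 of 11 in HIF1aKI/+ (medians -0.32 and -0.01). Fibroblast markers averaged 8.91 to 10.01 in HIF1a+/+, 7.31 to 8.59 in HIF1a+/- and 7.98 to 8.93 in HIF1aKI/+ tumours, with 9 of 9 lower in the mean in each altered genotype (medians -1.38 and -0.84). Of the 9, only Lum was below the low mode in all 14 tumours. Thymic epithelial markers averaged 3.20 to 7.27 in HIF1a+/+, 5.53 to 7.75 in HIF1a+/- and 6.64 to 7.89 in HIF1aKI/+. Against HIF1a+/+ the mean was higher for 7 of 8 in HIF1a+/- and 8 of 8 in HIF1aKI/+ (medians 1.64 and 2.16). Of the 8, Cldn4 and Aire had means below the low mode. Adipocyte markers averaged 8.27, 9.54 and 8.60 in HIF1a+/+ tumours 2, 3 and 5 and 5.31 to 6.75 in the other 11 tumours. Of the 6 B cell markers 5 had means below the low mode, and Igll1 and Vpreb1 were below it in every tumour. Of 12 immediate early and heat shock genes 7 had a lower mean in each altered genotype (medians -0.02 and -0.03). Ribosomal protein genes had a higher mean for 10 of 10 in HIF1a+/- and 9 of 10 in HIF1aKI/+ (medians 0.16 and 0.07).

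Across tumours the mitotic genes covaried only in part. After the genotype means were removed, the median Pearson r over the 1035 pairs of mitotic genes was 0.30 (Spearman rho 0.24) over 14 tumours, and 82.8% of pairs were above 0. Between mitotic genes and all other genes above the low mode the median r was 0.02 and 52.1% of pairs were above 0. All pairs share the same 14 arrays, so this is a description. Without HIF1a+/- tumour 5 the median r was 0.18 (Spearman rho 0.16) over 13 tumours. Against the mean of the other genes, r was 0.85 for Bub1 (rho 0.67, and r of 0.68 without that tumour) and 0.77 for Kif4 (rho 0.69, and r of 0.72 without it). The Bub1 values hold for the probe set used, which its second probe set did not follow. The order of the genes depended on the measure, since Ncapg was highest by rho, at 0.78, and Bub1b by r without that tumour, at 0.83. For Pttg1 r was -0.12 (rho -0.15) and for Bub3 0.03 (rho -0.03). The median within-genotype SD of a mitotic gene was 0.35, against 0.46 over all genes above the low mode.

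Other genes of division, taken from fixed lists, did not share the direction throughout, and 0 genes in any of these lists passed in limma in any comparison. Of 51 other mitotic genes 28 had a lower mean in HIF1a+/- than in HIF1a+/+ tumours (median -0.03) and 22 did in HIF1aKI/+ (median 0.04). Without HIF1a+/- tumour 5 the former were 23 and 0.07. At an unadjusted p under 0.05 there were 1 lower and 1 higher in HIF1a+/-, and 0 lower and 2 higher in HIF1aKI/+. Those of smallest p in HIF1a+/- were Aspm, a spindle-pole protein, at -0.52 (SE 0.12, limma adjusted p = 0.408) and Mis12, a kinetochore protein, at 0.55 (SE 0.17, limma adjusted p = 0.474). Of 13 genes of the anaphase-promoting complex 5 were lower in HIF1a+/- and 8 in HIF1aKI/+. At an unadjusted p under 0.05 there were 0 lower and 2 higher in HIF1a+/-, where Anapc11 was at 0.99 (SE 0.27, limma adjusted p = 0.474), and 1 lower and 0 higher in HIF1aKI/+. The DREAM and MYB-MuvB complexes repress and activate CHR genes. Of a list of 10 genes, their subunits plus the Cdk inhibitor Cdkn1a (p21), a p53 target that belongs to neither complex, 7 had a lower mean in each altered genotype, Cdkn1a among them. At an unadjusted p under 0.05 there were 0 lower and 1 higher in HIF1a+/-, and 0 in either direction in HIF1aKI/+. Rbl2 (p130), a repressor subunit, differed by 1.76 (SE 0.71, limma adjusted p = 0.578) and Mybl2 (B-Myb), an activator, by -0.81 (SE 0.43, limma adjusted p = 0.655) in HIF1a+/-. Of 7 cohesin genes 6 and 4 were lower (0 at an unadjusted p under 0.05), with Smc1a at -0.23 in both (SE 0.12 and 0.13).

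DNA replication genes are used earlier in the cycle, in S phase. Of 30, 24 were lower in HIF1a+/- (median -0.12, 2 at an unadjusted p under 0.05) but 8 in HIF1aKI/+ (median 0.17, 0 at that level) against HIF1a+/+. Between HIF1a+/- and HIF1aKI/+ 28 of 30 were lower (median -0.38, 5 at an unadjusted p under 0.05), where 31 of 46 mitotic genes were (median -0.05). Of all genes 53.1% were lower in that comparison, and 1.65% were lower at an unadjusted p under 0.05. The difference between the lists was not tested. The replication list averaged 10.31 in HIF1a+/- tumour 5 and 11.30 to 11.74 in the other 13 tumours. Against the mean of each gene this tumour averaged -1.16 over the replication genes, -0.51 over the 46 mitotic genes and -0.50 over the 51 other mitotic genes. Without that tumour 13 of 30 were lower in HIF1a+/- than in HIF1a+/+ (median 0.07) and 26 of 30 lower than in HIF1aKI/+ (median -0.18). In the latter comparison 1 gene then had an unadjusted p under 0.05. Rrm2, a ribonucleotide reductase subunit, was -0.32 (SE 0.12, limma adjusted p = 0.540) and Mcm2, of the replicative helicase, -0.52 (SE 0.21, limma adjusted p = 0.587) in HIF1a+/-. Mcm4 differed by -0.98 (SE 0.38) between HIF1a+/- and HIF1aKI/+ and did not pass in limma.

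Where a gene had several probe sets they did not always give the same answer. Of the 46 genes 22 had more than 1, and for 20 more than 1 lay above the low mode. Only probe sets above the low mode were compared. Against HIF1a+/+, all those of a gene lay on the same side of 0 for 16 of these 20 in HIF1a+/-. In HIF1aKI/+ the count was also 16 of 20. Bub3, Hmmr, Smc4 and Tpx2 were the exceptions in the former and Bub1, Bub3, Hmmr and Kif11 in the latter. The probe set used carried a suffix for probes that can match other transcripts in 9 of 46 genes, 5 with s_at and 4 with x_at. The latter were Incenp, Cdc20, Kif2c and Ncaph.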

How the data were processed

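Total RNA (100 ng) of 14 thymic lymphomas was amplified, labelled and hybridised to 1 array per tumour, per the labels' protocols. The authors deposited log2 probe set values, and GCRMA and Partek are named in the submitters' processing notes without versions. Of 18264 probe sets, 16602 named 1 gene, 603 several and 1059 none. The probe set of highest mean was kept per gene, which left 10254 genes. In limma 3.58.1 (R 4.3.3) each genotype had its own mean, the 14 arrays shared 1 estimate of the spread per gene, with 3 contrasts and an F test, Benjamini-Hochberg adjustment over all genes and a threshold of 0.05, and the fit was tested on simulated data. The labels call the tumours biological replicates. The number of arrays limits the precision. The members and lists were chosen with earlier results of these data known. Values per tumour are given for a fixed set of 16 measured genes and for the 4 of smallest unadjusted p in each comparison, and for Pttg1, which was chosen after its values were seen. From the other lists, up to 2 genes of smallest p are named. Arrays of different genotypes were no more alike when they shared a replicate number. After genotype means were removed, their mean correlation was -0.0003 with the same number (range -0.12 to 0.15, 13 pairs) and 0.0002 with another. So few pairs cannot exclude a pairing. Alternatives covered scaling, a level filter, probe set choice, moderation, weights, a replicate block, the arrays fitted and each array left out.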

Additional observations from a re-analysis of the deposited data

Results flagged for a closer look

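In 11 of 141 groups of tumours examined, 138 for a single gene in 1 genotype and 3 for the average of the 46 genes in 1 genotype, 1 tumour stood apart from the rest of its genotype. All 11 were single genes. Chance alone gives about 1 in 20 such groups. In HIF1a+/+, Plk1 was 9.05 in tumour 4 (9.89 to 10.16 in the others), Nusap1 was 11.96 in tumour 1 (12.41 to 12.55) and Mki67 was 12.57 in tumour 5 (13.05 to 13.22). Bub1b was 11.66 in HIF1a+/+ tumour 4 (10.42 to 10.75 in the others) and 11.67 in HIF1a+/- tumour 1 (10.10 to 10.42). HIF1a+/- tumour 1 also stood above its group for Cdc25b, at 12.03 (10.50 to 10.73), and Smc2, at 12.36 (11.62 to 11.79). Birc5 was 13.31 in HIF1a+/- tumour 5 (13.71 to 13.77) and 13.76 in HIF1aKI/+ tumour 4 (13.66 to 13.67). Nek2 was 5.62 in HIF1aKI/+ tumour 4 (6.55 to 6.70), and Ndc80 was 8.87 in HIF1aKI/+ tumour 3 (10.14 to 10.25).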

How the results depend on the processing

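No mitotic gene passed the threshold under any alternative run. The 2 genes called among all 10254 in HIF1a+/- against HIF1a+/+ were 0 with arrays centred on their medians, with quantile normalization, with genes above the low mode only, with a replicate block and with only the compared genotypes fitted, 1 with trend and robust moderation, and 0 to 1 with 1 array left out. With 1 array left out, 0 to 2 genes were called in HIF1aKI/+ against HIF1a+/+, 0 to 1 in HIF1a+/- against HIF1aKI/+ and 0 to 1 in the F test. The replicate block changed no call of a mitotic gene. The count of mitotic genes with a lower mean in HIF1a+/- than in HIF1a+/+ was 32 to 41 with 1 array left out (median difference -0.27 to -0.09), and in HIF1aKI/+ it was 30 to 36 (-0.26 to -0.09). Between HIF1a+/- and HIF1aKI/+ it was 18 to 34 (-0.12 to 0.05), 18 being without HIF1a+/- tumour 5, and 23 with the probe sets of each gene averaged. Single differences changed sign in 31 of 1104 comparisons with other settings and in 118 of 1932 with an array left out. Those that changed had a median size of 0.05 and a largest size of 0.29. Both totals include comparisons that could not change sign. Moderation, the level filter and fitting only the compared genotypes leave a difference of means as it was. So does leaving out an array of a genotype that is not compared. Another scaling moved the average of a tumour by at most 0.08. Counts by role and by list, and correlations, without HIF1a+/- tumour 5 were added after seeing the data. With 4 or 5 arrays per genotype the median SE of a difference was 0.22 to 0.23.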
